A study of Rattus norvegicus with 12 samples.

Results

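The α- and β-crystallin genes *Cryab*, *Cryba1*, *Cryba2*, *Cryba4*, *Crybb1*, *Crybb2* and *Crybb3* were examined in rat lenses before and during the formation of cortical opacity. They were chosen by name, and each was measured by the probe set with that single gene symbol in the annotation of the array. Of the 7 genes, 3 had such a probe set, *Cryab*, *Cryba1* and *Cryba2*, with 1 probe set each, among 18166 genes measured in all. *Cryba4*, *Crybb1*, *Crybb2* and *Crybb3* are not listed in the annotation used here, also not on probe sets with several symbols, and were not analysed here. Lenses came from male ICR rats (strain ICR/Ihr, the Ihara Cataract Rat, in which hereditary cataract develops spontaneously with age) and from male Sprague Dawley (SD) rats, which carry no cataract at these ages. ICR lenses were sampled at 4 weeks without opacity and at 8 and 10 weeks with cortical opacity, 3 arrays at each age, and SD lenses gave 1 array at each of the same ages. RNA from lenses taken out of culture medium was labelled and run on the GeneChip Rat Gene 2.0 ST array, and the values are log2 signals, in which a difference of 1 is a doubling. Age and opacity changed together in ICR, so they cannot be told apart within that strain.

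Crystallins are the proteins that fill the fibre cells of the lens and give it transparency and refractive power. αB-crystallin, encoded by *Cryab*, is a small heat shock protein that acts as a molecular chaperone and keeps damaged proteins in solution, and it is also expressed in heart and skeletal muscle. The β-crystallins share a fold of Greek key motifs with the γ-crystallins and assemble into dimers and larger oligomers. *Cryba1* encodes βA3/A1-crystallin, *Cryba2* βA2-crystallin and *Cryba4* βA4-crystallin, the acidic members, and *Crybb1*, *Crybb2* and *Crybb3* encode the basic members. Fibre cells lose their nuclei as they mature, so crystallin mRNA is made in the epithelium and the young outer fibres. Mutations in several of these genes cause inherited cataract in humans.

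The promoters of *Cryba1* and *Cryba2* are shown because these were the measured members with an entry in the RefSeq promoter table (assembly GRCr8), which held 6 of the 7 genes and covers 250 bases before to 50 bases after each start site. Capitals mark TATAAA (reverse complement TTTATA) and TGCTGA (reverse complement TCAGCA), a core of the recognition element of Maf proteins, which are regulators of crystallin genes. Both strands were searched, and the motifs share no bases in these windows.
Cryba1, chr10:63112768-63113067, minus strand: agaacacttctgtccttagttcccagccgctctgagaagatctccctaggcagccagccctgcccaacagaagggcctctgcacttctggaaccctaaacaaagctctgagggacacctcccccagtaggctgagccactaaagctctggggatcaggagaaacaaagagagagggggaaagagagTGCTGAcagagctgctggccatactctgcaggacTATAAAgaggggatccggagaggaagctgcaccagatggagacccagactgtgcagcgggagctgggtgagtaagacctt
Cryba2, chr9:83899082-83899381, minus strand: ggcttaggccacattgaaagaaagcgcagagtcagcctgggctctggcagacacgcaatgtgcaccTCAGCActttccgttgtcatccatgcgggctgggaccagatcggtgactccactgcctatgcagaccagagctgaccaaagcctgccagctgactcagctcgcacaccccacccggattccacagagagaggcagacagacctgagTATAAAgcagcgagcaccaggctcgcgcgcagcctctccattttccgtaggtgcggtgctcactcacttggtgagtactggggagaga
In *Cryba1*, TATAAA lay at bases 221 to 226 of the window and TGCTGA at bases 187 to 192, both on the strand of the gene. In *Cryba2*, TATAAA lay at bases 213 to 218 on the strand of the gene, and TCAGCA at bases 67 to 72 placed the Maf core on the opposite strand. TATAAA was found in 2 of the 6 members and in 14.2% of all 33469 promoters of the table, and the Maf core in 4 of the 6 and in 18.4% of all. A match describes the letters only.

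The 3 crystallin genes stood near the top of the signal range on every array. *Cryba1* ranged from 12.91 to 13.09 over the 12 arrays, and 6 to 11 of the 36685 probe sets were brighter. *Cryab* ranged from 12.70 to 13.08, with 6 to 17 brighter probe sets. *Cryba2* ranged from 12.22 to 12.85, with 11 to 33 brighter probe sets. The brightest probe set of an array had a signal of 13.34 to 13.52. The distance to it was 0.29 to 0.61 for *Cryba1*, 0.26 to 0.81 for *Cryab* and 0.50 to 1.29 for *Cryba2* on the log2 scale, so no member could have been brighter by more than 2.44-fold without passing the brightest probe set. The deposited table holds no saturation flag, and whether single probes were saturated was not tested.

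The lens origin of the RNA was checked with marker genes. The 6 measured of 8 lens fibre markers had mean signals between 10.31 and 10.80 on the ICR arrays, and 4 of 6 lens epithelium markers reached a signal of 5, the minimum used in the study, on at least 1 ICR array. Of the measured markers, 0 of 4 for retina, 0 of 2 for cornea and 0 of 1 for blood reached 5 on any ICR array. Markers of ciliary body and iris, tissues that border the lens, had a mean signal over 8 genes of 3.89 to 4.93 at 4 weeks and 2.92 to 3.55 at 10 weeks, and 4 of the 8 reached 5 on at least 1 ICR array. These 4 changed from 4 to 10 weeks by −2.50 (*Slc26a4*), −2.22 (*Fbn1*), −1.94 (*Enpp2*) and −1.50 (*Slc13a3*), a median of −2.08. With the block described below 4 of 4 were called lower (adjusted p = 0.0249 to 0.0358 from limma), where 7.33% of all genes were. Without it 0 of 4 were called, where 0.154% of all genes were. Among the ICR arrays *Slc13a3* reached 5 only on the 4-week array numbered 2 (5.49), and *Enpp2* only at 4 and 8 weeks. *Slc13a3* and *Enpp2* thus entered the test only through ages where they are high, so the 4 calls together support nothing about the bordering tissues. *Fbn1* and *Slc26a4* also reached 5 on the 10-week array numbered 3 (5.22 and 5.02). The part of these tissues in the age comparisons was not tested. The ICR arrays numbered 1 stood apart from those numbered 2 and 3 at all ages, with 3531 to 3934 genes at a signal of 5 or more against 3115 to 3271, and SD arrays had 3023 to 3339. The comparisons of the 3 crystallin genes are therefore given with and without those 3 arrays.

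*Cryab*, the chaperone, had signals of 13.04, 12.70 and 12.75 at 4 weeks for ICR numbers 1, 2 and 3. At 8 weeks the signals were 13.08, 12.71 and 12.76, and at 10 weeks they were 13.05, 12.72 and 12.81. The SD lenses gave 12.82, 12.75 and 12.70 at 4, 8 and 10 weeks. At each age the array numbered 1 was the highest and the array numbered 2 the lowest, the ages overlapped, and the SD values lay within the range of the ICR arrays. The ICR means were 12.83 ± 0.18, 12.85 ± 0.20 and 12.86 ± 0.17 (SD, n = 3) at 4, 8 and 10 weeks.

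*Cryba1*, which encodes βA3/A1-crystallin, had signals of 13.09, 13.07 and 13.02 at 4 weeks for numbers 1, 2 and 3. These were 13.04, 13.01 and 12.96 at 8 weeks and 13.05, 12.91 and 12.93 at 10 weeks. In SD lenses the signals were 13.03, 12.96 and 12.92 at 4, 8 and 10 weeks. Within each number the 4-week array was the highest of the 3 ages, as was the 4-week array of SD, while the groups overlapped across numbers. The ICR means were 13.06 ± 0.034, 13.00 ± 0.044 and 12.96 ± 0.077 (SD, n = 3).

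*Cryba2*, which encodes βA2-crystallin, had signals of 12.85, 12.37 and 12.38 at 4 weeks. They were 12.73, 12.26 and 12.34 at 8 weeks and 12.83, 12.26 and 12.32 at 10 weeks, again for numbers 1, 2 and 3. SD lenses gave 12.35, 12.38 and 12.22 at 4, 8 and 10 weeks. The arrays numbered 1 were the highest at every age, and the other ICR arrays and the SD arrays together spanned 12.22 to 12.38. The ICR means were 12.53 ± 0.27, 12.44 ± 0.25 and 12.47 ± 0.32 (SD, n = 3).

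**Figure D1:**
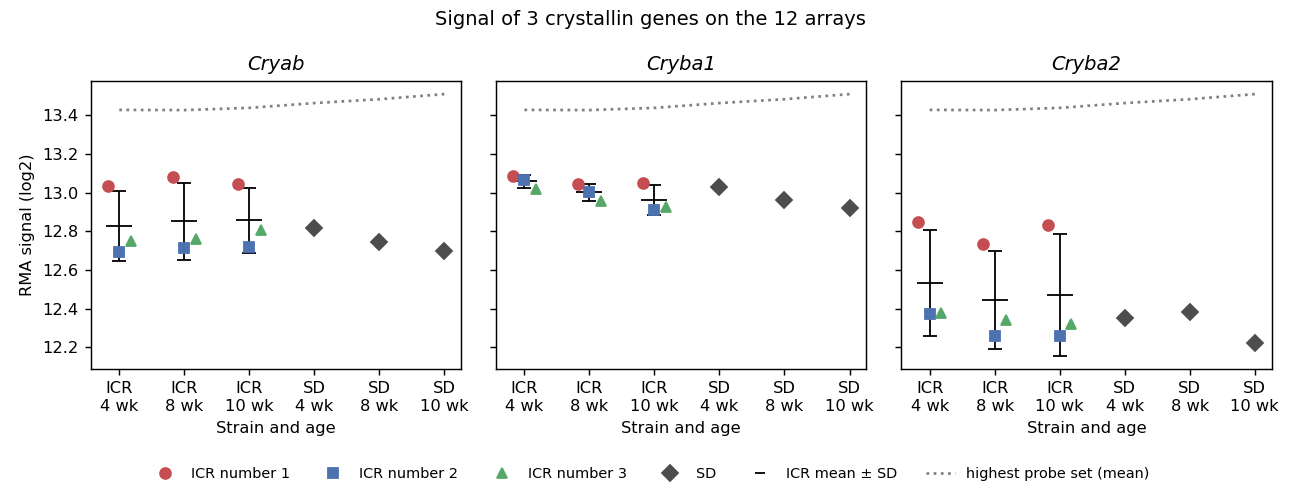
Log2 signal (y axis) of *Cryab*, *Cryba1* and *Cryba2* by strain and age (x axis), with each ICR array drawn by its number, SD arrays as diamonds, the ICR mean ± SD as a cross with bars (n = 3), and a dotted line at the brightest probe set, averaged within a group. The *Cryab* arrays numbered 1 sit between 13.04 and 13.08 at all ages and the others at or below 12.81, while *Cryba1* stays between 12.91 and 13.09.

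In *Cryab* and *Cryba2*, the ICR arrays numbered 1 differed from the others by more than the means of the ages differed. Numbers 2 and 3 lay close together, with averages of 12.71 and 12.77 for *Cryab* and 12.30 and 12.35 for *Cryba2*. The 3 arrays numbered 1 averaged 13.05 for *Cryab* against 12.74 for the other 6 ICR arrays, a difference of 0.31, and the lowest of the former, 13.04, was above the highest of the latter, 12.81. For *Cryba2* the averages were 12.81 and 12.32, a difference of 0.48, and these arrays also did not overlap (12.73 against 12.38). For *Cryba1* the averages were 13.06 and 12.98, a difference of 0.08, and the arrays overlapped (13.04 against 13.07). The meaning of the numbers beyond a replicate is not given in the sources used here, and the split was described after the values were seen, so it was given no test.

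To ask whether the crystallin genes changed as cortical opacity formed, ICR lenses at 10 weeks were compared with those at 4 weeks by limma over 4546 genes. None of the 3 genes passed the adjusted threshold of 0.05 (0 of 3), where 0.154% of all genes tested did (7 genes, all lower, with 501 genes at an unadjusted p under 0.05). The change of *Cryab* was 0.03 on the log2 scale (standard error 0.16, 95% interval −0.34 to 0.40, adjusted p = 0.994). That of *Cryba1* was −0.10 (standard error 0.11, 95% interval −0.34 to 0.15, adjusted p = 0.907), and that of *Cryba2* was −0.06 (standard error 0.22, 95% interval −0.57 to 0.45, adjusted p = 0.984). As ratios, the intervals ran from 0.788 to 1.32 for *Cryab*, from 0.790 to 1.11 for *Cryba1* and from 0.676 to 1.36 for *Cryba2*. The median change was −0.06 over the 3 genes and −0.10 over all genes tested. In bulk lens RNA, fewer cells that express a gene and less mRNA per cell cannot be told apart. It is not stated whether the replicates were separate animals, so the p-values cover the spread among these arrays alone, and part or all of it may be technical.

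The arrays could also be compared within their numbers, since those with the same number deviated together, though no pairing is described in the sources used here. From 4 to 10 weeks, *Cryab* differed by 0.01, 0.02 and 0.05 for numbers 1, 2 and 3 in ICR and by −0.12 in SD. The *Cryba1* differences were −0.04, −0.16 and −0.09 in ICR and −0.10 in SD. Those of *Cryba2* were −0.01, −0.11 and −0.05 in ICR and −0.13 in SD. *Cryba1* and *Cryba2* were thus lower at 10 weeks in 3 of 3 numbers and in SD, by amounts that did not pass the test. Over all genes tested the median change in ICR was −0.10, and the share of them lower in 3 of 3 numbers was not counted. With the number as a block, 8.91% of all genes were called (72 genes or 1.58% higher and 333 genes or 7.33% lower) and again 0 of the 3 crystallin genes. The intervals narrowed to −0.20 to 0.25 for *Cryab* (adjusted p = 0.875 from limma), −0.32 to 0.13 for *Cryba1* (adjusted p = 0.573) and −0.29 to 0.17 for *Cryba2* (adjusted p = 0.737). Without the 3 arrays numbered 1 the changes were 0.04 for *Cryab* (95% interval −0.23 to 0.31), −0.13 for *Cryba1* (−0.39 to 0.14) and −0.08 for *Cryba2* (−0.35 to 0.19). The signals at 4 and 10 weeks did not overlap in 0 of the 3 genes and in 17.2% of all genes.

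At 8 weeks, the earlier age with cortical opacity, the changes from 4 weeks were 0.02 for *Cryab* (95% interval −0.35 to 0.40), −0.06 for *Cryba1* (95% interval −0.30 to 0.19) and −0.09 for *Cryba2* (95% interval −0.59 to 0.42). Limma called 0 of the 3 genes and 0.0% of all genes, with 246 of 4546 at an unadjusted p under 0.05, and with the number as a block 0 of 3 and 0.176% of all (8 genes, 0.022% higher and 0.154% lower). Within numbers 1, 2 and 3, *Cryab* differed by 0.05, 0.02 and 0.01, *Cryba1* by −0.04, −0.06 and −0.07, and *Cryba2* by −0.11, −0.12 and −0.04. The SD differences were −0.07, −0.06 and 0.03 for the same genes. Without the arrays numbered 1 the changes were 0.01, −0.06 and −0.08 in the same order. Signals at 4 and 8 weeks did not overlap in 0 of 3 crystallin genes and in 10.4% of all genes.

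ICR was compared with SD at matched ages to ask whether levels differed between the strain with cataract and that without. The difference, ICR minus SD with age held, was 0.09 for *Cryab* (95% interval −0.17 to 0.36, adjusted p = 0.772 from limma), 0.04 for *Cryba1* (−0.13 to 0.21, adjusted p = 0.854) and 0.16 for *Cryba2* (−0.19 to 0.52, adjusted p = 0.722). Of the crystallin genes 0 of 3 were called, against 0.67% of 4627 genes (31 genes, 0.367% higher and 0.303% lower in ICR). Without the 3 ICR arrays numbered 1 the differences were −0.01, 0.01 and 0.0027 in the same order. The 9 ICR and 3 SD arrays overlapped in all 3 genes and did not overlap in 3.98% of all genes. The change from 4 to 10 weeks differed between the strains by 0.15 for *Cryab* (95% interval −0.59 to 0.90), 0.01 for *Cryba1* (−0.48 to 0.49) and 0.07 for *Cryba2* (−0.94 to 1.08). In that comparison 0 of 3 and 0.0% of all genes were called, with 70 genes at an unadjusted p under 0.05. Without the arrays numbered 1 these differences were 0.16, −0.02 and 0.04. The comparison rests on 1 SD array per age, which was assumed to vary like the ICR arrays.

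The spread between arrays was smaller among the brightest probe sets. Probe sets with and without a gene symbol were counted here, and only 10 tested genes had a mean of 12 or more. Pooled within ages, the standard deviation between ICR arrays had a median of 0.270 for the 4270 probe sets with mean signals of 5 to 7, 0.365 for the 202 at 9 to 11, 0.285 for the 40 at 11 to 12 and 0.175 for the 38 at 12 or above. The range over the 12 arrays had a median of 0.947 in the lowest of these bins and 0.444 in the highest. *Cryba1* had a standard deviation of 0.0546, and 0 of the 38 brightest probe sets had a smaller one. *Cryab* was at 0.184, with 20 of the 38 smaller, and *Cryba2* at 0.282, with 34 of the 38 smaller. The difference of the arrays numbered 1 from the others had a median of −0.23 over the 38 brightest probe sets. It was above 0 for 15 of the 38, among them the 3 crystallin genes. It was larger than in *Cryba1* for 14 of the 38, than in *Cryab* for 6 and than in *Cryba2* for 1. The levels of *Cryba1* moved over 1.13-fold, those of *Cryab* over 1.31-fold and those of *Cryba2* over 1.54-fold across all arrays. Whether a compressed response at the top of the range reduced the age differences was not tested.

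**Figure D2:**
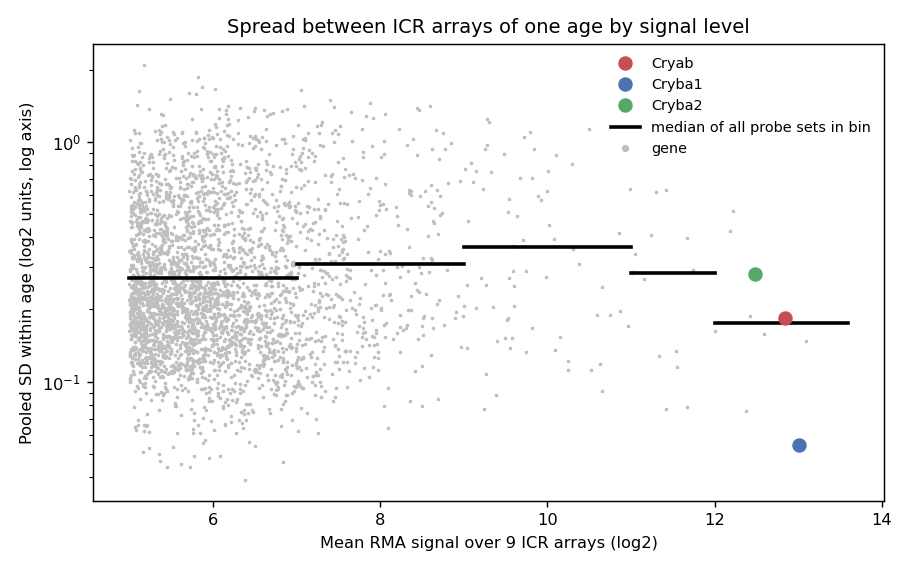
Pooled standard deviation within age of the log2 signal (y axis, log scale) against the mean log2 signal over the 9 ICR arrays (x axis), with 1 point per gene with a mean of 5 or more, the crystallin genes as large coloured points and black lines at the median of all probe sets in each bin of signal. The medians lie between 0.270 and 0.365 up to a signal of 12 and at 0.175 above it, and *Cryba1* lies below all other genes in the highest bin at 0.0546.

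Of the other crystallin genes, 7 of 9 were measured and tested, all of them genes of the γ-crystallin family of structural lens proteins. *Cryaa*, the α-crystallin that forms complexes with αB, and *Cryga* were not analysed here. From 4 to 10 weeks in ICR, 1 of the 7 was called lower (0.154% of all genes) and 0 higher, and with the number as a block 3 were lower (7.33% of all genes) and 0 higher. The median change of the 7 was −0.30, against −0.10 over all genes. *Crygb* to *Crygf* are close paralogs, and how far their probes share signal was not tested.

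*Cryge* had signals of 11.46, 11.64 and 11.28 at 4 weeks, 11.19, 10.82 and 10.87 at 8 weeks and 9.63, 10.01 and 9.81 at 10 weeks. The 10-week arrays were all below the 4-week and 8-week arrays, where 17.2% of all genes had 4- and 10-week arrays that did not overlap. The change from 4 to 10 weeks was −1.64 (adjusted p = 0.0119 from limma, and 0.000311 with the block). Without the block this call was lost without 4-week replicate 1 (adjusted p = 0.0727) or 2 (0.0776) or without 10-week replicate 1 (0.0507), 2 (0.0572) or 3 (0.102), and with the block it held without each single array. Without the 3 arrays numbered 1 the adjusted p was 0.0174 without the block and 0.0143 with it.

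*Crygf* had signals of 11.74, 10.71 and 10.77 at 4 weeks and 8.97, 8.87 and 8.75 at 10 weeks, which did not overlap, as in 17.2% of all genes. Its change was −2.21, with an adjusted p = 0.0510 from limma without the block and 0.000156 with it, which became 0.00984 without the 3 arrays numbered 1. *Crygn* had signals of 11.41, 11.07 and 10.11 at 4 weeks and 9.98, 9.06 and 8.87 at 10 weeks, also without overlap. Its change was −1.56 (adjusted p = 0.213 from limma without the block and 0.00130 with it), and the latter call was lost without the 3 arrays numbered 1 (adjusted p = 0.0567). In SD lenses at 4, 8 and 10 weeks, *Crygf* was at 10.59, 9.49 and 8.53 and *Cryge* at 11.48, 10.83 and 10.43. *Crygn* was at 10.40, 9.84 and 9.23 there, so each of these genes was lowest at 10 weeks in SD too. The difference between the strains in the change from 4 to 10 weeks was called for 0 of the 7 genes, as were the 8-week change and the strain difference.

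The remaining γ-crystallin genes had changes of −0.25 for *Crygb*, −0.30 for *Crygc*, 0.02 for *Crygd* and 0.11 for *Crygs*, and none passed the test with or without the block. Grouped by level, the 6 crystallin genes with a mean signal of 12 or more, *Cryab*, *Cryba1*, *Cryba2*, *Crygc*, *Crygd* and *Crygs*, changed by −0.30 to 0.11, and the 4 below 12 by −2.21 to −0.25. The limit of 12 was chosen after the values were seen, and the ranges of change on its sides overlapped. Over all 10 genes tested with a mean of 12 or more, the median size of the change was 0.098, against 0.184 over all genes tested. Of these 10, 6 are the same crystallin genes, so the median is not a separate observation.

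**Figure D3:**
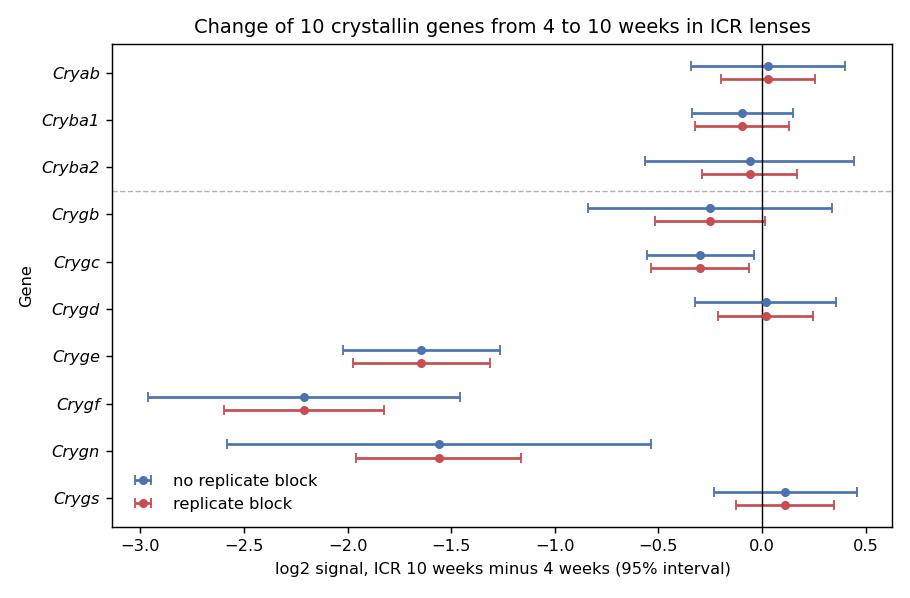
Log2 change from 4 to 10 weeks in ICR lenses (x axis) with 95% intervals from limma, for the 3 measured α- and β-crystallin genes (above the dashed line) and 7 γ-crystallin genes (below it), without (blue) and with (red) the replicate number as a block. The upper 3 intervals all include 0 and none lies beyond −0.57 or 0.45, while *Cryge*, *Crygf* and *Crygn* changed by −1.64, −2.21 and −1.56.

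Small heat shock proteins, the family of αB-crystallin, had 3 of 6 genes at a testable level. *Hspb1*, which encodes the chaperone HSP27, had signals of 9.04, 7.88 and 8.20 at 4 weeks and 9.52, 8.57 and 8.42 at 10 weeks. These overlapped between ages and were higher at 10 weeks within each number. Its change of 0.46 had an adjusted p = 0.864 from limma without the block and 0.0424 with it, and the latter was lost in 9 of 11 further settings. *Hspb2*, the neighbour of *Cryab* in the genome, was at 5.17, 4.10 and 4.14 at 4 weeks and 5.11, 4.19 and 4.33 at 10 weeks. Its change was 0.08 (adjusted p = 0.994 from limma), and it reached 5 only on the ICR arrays numbered 1, through which it entered the test. Those arrays were the highest at both ages for *Hspb2*, as for *Cryab*, *Hspb1* and *Hspb6*. They were on average above the other ICR arrays in 2733 of the 4270 probe sets with mean signals of 5 to 7. Of the 3 genes, 0 were called without the block and 1 was higher with it, where 1.58% of all genes were higher, and the median change was 0.08 against −0.10 over all genes.

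Regulators of crystallin genes had 10 of 16 genes tested, with a median change of −0.28 from 4 to 10 weeks against −0.10 over all genes. With the block, *Maf* and *Meis1* (2 of 10) were called lower, where 7.33% of all genes were, and 0 higher, and without it 0 were called. *Maf* encodes the factor c-Maf that binds the element marked above. Its signals were 9.82, 10.20 and 9.86 at 4 weeks and 9.20, 9.23 and 9.26 at 10 weeks, which did not overlap, as in 17.2% of all genes. Its change was −0.73 (adjusted p = 0.111 from limma without the block and 0.00912 with it). The call with the block was lost without 4-week replicate 1 (adjusted p = 0.0634), 10-week replicate 2 (0.0603) or the 3 arrays numbered 1 (0.0667). *Meis1*, a homeobox gene that acts upstream of *Pax6* in the lens, was at 5.12 on the 4-week array numbered 2 and between 3.23 and 3.88 on the other 8 ICR arrays. It entered the test through that 4-week array alone, where it is high, so its difference of −0.94 (adjusted p = 0.306 from limma without the block and 0.0428 with it) supports nothing about the regulators, and the call was lost in 7 of 10 further settings. *Pax6*, the regulator of eye development, changed by −0.41 in ICR (adjusted p = 0.391 from limma without and 0.0588 with the block). In SD lenses *Pax6* was at 6.79, 6.72 and 6.45 at 4, 8 and 10 weeks. At 8 weeks and between strains, 0 of the 3 small heat shock protein genes and 0 of the 10 regulators were called.

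The levels of the 3 crystallin genes were set against each other and against all other tested genes over the arrays, as a description. Pearson's r over the 12 arrays was 0.95 between *Cryab* and *Cryba2*, 0.58 between *Cryab* and *Cryba1* and 0.71 between *Cryba1* and *Cryba2*. Among 4624 other genes, those most like *Cryab* were *Mea1* (r = 0.987) and *Rabac1* (0.985), those most like *Cryba1* were *Nek6* (0.955) and *Eif2s2* (0.940), and those most like *Cryba2* were *Ost4* (0.993) and *Igfbp7* (0.986). The arrays share the RMA procedure and the offset of those numbered 1. Without those 3 arrays, r was 0.839, 0.807, 0.969, 0.917, 0.954 and 0.816 in the same order. The similar genes moved over wider ranges, *Ost4* from 6.27 to 9.17 where *Cryba2* covered 0.62, and *Mea1* from 6.52 to 8.84 where *Cryab* covered 0.39. For 1 unit of log2 signal in *Ost4*, *Cryba2* moved by 0.20, and for 1 unit in *Mea1*, *Cryab* moved by 0.17.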

How the data were processed

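The authors normalized the scans in R by Robust Multi-array Average (RMA), and the values they deposited are log2 signals, 1 per array for 36685 probe sets on 12 arrays. Whether this was done over all arrays at once is not given in the sources used here. In the platform annotation 18511 probe sets have 1 gene symbol, 575 have several and 17599 are not listed. These gave 18166 genes, and the brightest probe set on the ICR arrays was kept for the 291 genes with more than 1. Gene IDs of 18394 probe sets matched RefSeq, and 0 symbols were updated. Genes at a signal of 5 or more on at least 1 array of a fit were tested with lmFit and eBayes of limma 3.58.1 (R 4.3.3), 2-sided, with Benjamini-Hochberg adjustment over all genes tested and a threshold of 0.05. The 9 ICR arrays formed one fit for the ages. Strains were compared over 12 arrays, with age as a factor or with 6 groups. Samples were grouped by their GEO labels.

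The replicate numbers come from the sample titles. In all 9 pairs of ICR arrays with the same number, deviations from the age means correlated (0.547 to 0.848), against −0.750 to 0.508 for other pairs. A fit with the number as a block was therefore added. The block thus rests on the same signals that it was fitted to, and no pairing is described in the sources used here. The number of arrays limits the precision. Fits were tested on simulated data with independent noise and no offset by replicate number, so the block was not tested on such an offset. Members and gene lists were chosen with earlier results of these data known. Named genes were the 7 members, list genes past the test or beside a member, and the 2 genes most correlated with each member. Alternatives were other filters, quantile and cyclic loess normalization, array weights, a variance trend with robust estimation, the mean of all probe sets of a gene, the block, and leaving out arrays. Plots used matplotlib 3.10.9 and Python 3.11.15.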

Additional observations from a re-analysis of the deposited data

How the results depend on the processing

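Across 285 fits of the 3 crystallin genes under 33 settings, 0 gave a call, the lowest adjusted p was 0.220 (unadjusted 0.0692, *Cryba1* from 4 to 10 weeks with the replicate block, a variance trend and robust estimation, a setting chosen after seeing the data), and 0 had an unadjusted p under 0.05. Changes this near 0 turned sign in some settings. With cyclic loess, *Cryba1* and *Cryba2* changed by 0.012 and 0.052 from 4 to 10 weeks and *Cryba1* by 0.019 from 4 to 8 weeks, and with array weights *Cryab* changed by −0.00078 from 4 to 8 weeks. Without the 3 ICR arrays numbered 1, the *Cryab* strain difference was −0.013 and the *Cryba1* difference between strains in the change from 4 to 10 weeks was −0.020. Leaving out 1 array at a time gave, from 4 to 10 weeks, −0.065 to 0.13 for *Cryab*, −0.14 to −0.067 for *Cryba1* and −0.24 to 0.097 for *Cryba2*. From 4 to 8 weeks it gave −0.090 to 0.13, −0.078 to −0.034 and −0.23 to 0.068. For the strain difference it gave 0.055 to 0.13, 0.022 to 0.044 and 0.10 to 0.21, and for the difference between strains in the change 0.056 to 0.26, −0.035 to 0.035 and −0.11 to 0.23, where the fit was not possible without the SD array of 4 or 10 weeks. The cause of these turns was not tested. The replicate block left the changes of the 3 genes as they were and made 0 calls among them. The lowest rank of the members on an array was percentile 99.91 among all probe sets and 99.96 among those with 1 gene symbol. The 7 calls over all genes from 4 to 10 weeks, 0 higher and 7 lower, became 72 higher and 333 lower with the replicate block, 5 and 15 with quantile normalization, 3 and 10 with cyclic loess, 20 and 66 with array weights, and 0 and 5 with no filter. With 1 array left out, that count of 7 was 0 when the array was 4-week number 1 or 2 or one of 10 weeks, 39 when it was 4-week number 3, and 3 to 8 when it was one of 8 weeks. The blocked count of 405 dropped most on leaving out 4-week number 1 (81), 10-week number 1 (87), 10-week number 2 (122) and 4-week number 2 (166), and was 30 when all 3 arrays numbered 1 were left out. The 8 calls at 8 weeks with the block ranged from 0 to 66 (without 4-week replicate 3) with 1 array left out. The 31 strain calls became 13, 14 and 8 without the SD array of 4, 8 and 10 weeks, and 80 without the arrays numbered 1.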

Other observations

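*Crybg3*, a gene of the βγ-crystallin superfamily that is not a lens structural protein gene, was named after its values were seen. Its signal ranged from 4.67 to 5.25 on the 9 ICR arrays, with a median of 4.83, and was 5.67, 5.82 and 5.92 on the SD arrays at 4, 8 and 10 weeks. The strains thus did not overlap, as in 3.98% of all genes. The difference, ICR minus SD with age held, was −0.92 (standard error 0.12, adjusted p = 0.00415 from limma). The call was lost without the SD array of 8 weeks (adjusted p = 0.0561) or of 10 weeks (adjusted p = 0.0617). From 4 to 10 weeks in ICR it changed by −0.22 (adjusted p = 0.614 from limma). *Crybg2*, of the same superfamily, was below a signal of 5 on every array and was not tested.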
